A study of Mus musculus with 9 samples.

Results

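The Fat and Dachsous atypical cadherins were followed here in luminal mammary cells with and without the LATS1 and LATS2 kinases, together with Fjx1, the kinase that modifies them. The group was a named list of 7 genes, the receptors Fat1, Fat2, Fat3 and Fat4, the ligands Dchs1 and Dchs2, and Fjx1. All 7 were present among the 55450 genes of the count table, and all 7 passed the filter on low counts that left 19357 genes for testing. The data were RNA-sequencing counts of EYFP+ mammary cells in 3 groups of 3 libraries. Control mice carried lsl-EYFP and K8CreERT2, the LATS1/2-KO mice carried floxed Lats1 and Lats2 alleles (Lats1/2 f/f) in addition, and the LATS1/2-Sox9-KO mice carried floxed Sox9 alleles (Sox9 f/f) as well. All mice were adult and nulliparous, and mice of every group, control included, received 5 doses of 2 mg tamoxifen, with glands taken 7 days after the last dose. K8CreERT2 is a tamoxifen-activated Cre recombinase driven by the keratin 8 promoter. Deletion and the EYFP label are therefore both limited to cells that used that promoter during the injections and to their descendants. Live EYFP+ cells were the sorted population. Libraries held 44167762 to 47003587 counts in control, 50508666 to 61745346 in LATS1/2-KO and 55503365 to 61967651 in LATS1/2-Sox9-KO.

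Fat and Dachsous proteins are very large cadherins that sit at the cell surface and bind each other across the junction between neighbouring cells, Dachsous as the ligand and Fat as the receptor. The system was worked out in the fly, where it feeds into Hippo growth control and sets the direction in which cells of an epithelium are polarized. Four-jointed, the fly relative of Fjx1, is a Golgi kinase that phosphorylates the cadherin repeats of both partners and so tunes how well they bind. In mammals Fat4 and Dchs1 form the best described receptor and ligand pair, while Fat1 is known mainly for cell adhesion, actin organisation and tumour suppression, and LATS1 and LATS2 act far downstream as the kinases that restrain the coactivators YAP and TAZ.

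On the mouse genome GRCm38 (mm10), with GENCODE M21 gene models, Fat1 (ENSMUSG00000070047) spans chr8:44935447-45052257, Fat2 (ENSMUSG00000055333) chr11:55250609-55336564, Fat3 (ENSMUSG00000074505) chr9:15910189-16501285 and Fat4 (ENSMUSG00000046743) chr3:38886940-39011985. Dchs1 (ENSMUSG00000036862) lies at chr7:105752990-105787654, Dchs2 (ENSMUSG00000102692) at chr3:83127948-83357209 and Fjx1 (ENSMUSG00000075012) at chr2:102449366-102452499. The 6 cadherin genes are long, with 10.78 to 21.48 kb of exon sequence, whereas Fjx1 has 3.13 kb in 1 exon. Antisense genes overlap exons of Fat1, Fat4, Dchs1 and Dchs2, and the largest of them, Gm2366 at Fat1, held 40 counts in all 9 libraries together against 147995 for Fat1. C230034O21Rik, which is antisense to Fat4, held 25 counts against 2716 for Fat4.

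RefSeq promoter windows were matched for 5 of the 7 genes, Dchs1 and Fjx1 being the other two. The windows of Fat4 and Dchs2 are shown because both genes had higher mean counts than control in LATS1/2-KO and in LATS1/2-Sox9-KO and because neither window lies inside the annotated gene. The Fat4 window ends at the base before the GENCODE start, and the Dchs2 window ends 422 bases before it. They are the 250 bases before the RefSeq start on GRCm38.p6, read 5′ to 3′ on the plus strand, at chr3:38886690-38886939 for Fat4 and chr3:83127277-83127526 for Dchs2.
Fat4: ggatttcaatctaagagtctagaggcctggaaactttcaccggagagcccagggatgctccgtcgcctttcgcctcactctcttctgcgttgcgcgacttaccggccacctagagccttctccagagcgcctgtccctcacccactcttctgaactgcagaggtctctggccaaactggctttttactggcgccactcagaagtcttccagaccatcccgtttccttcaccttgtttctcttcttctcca
Dchs2: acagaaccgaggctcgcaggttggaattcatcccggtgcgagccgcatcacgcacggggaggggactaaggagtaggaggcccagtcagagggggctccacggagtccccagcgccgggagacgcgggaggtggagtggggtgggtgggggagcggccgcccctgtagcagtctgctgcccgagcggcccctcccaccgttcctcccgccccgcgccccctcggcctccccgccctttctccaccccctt
The letters GGAATG, the core bound by the TEAD partners of YAP and TAZ, were searched on both strands, as were the letters ACAAAG, a core bound by SOX factors. Capitals would mark a match to GGAATG, and neither window holds one, nor does either hold ACAAAG. Of 27025 RefSeq promoter windows of the same length, 12.6% hold GGAATG and 16.5% hold ACAAAG on either strand. The Fat3 window has neither set of letters. The Fat1 and Fat2 windows each hold 1 GGAATG, but they lie 14.8 and 24.3 kb inside the GENCODE gene, so they are not sequence before the annotated start and are not shown. The 2 windows shown also differ in base composition, with 54.8% G and C for Fat4 and 72.0% for Dchs2.

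The targeted genes were examined first as a check of the labels. Lats1 had 5672, 5929 and 5940 normalized counts in control replicates 1, 2 and 3, against 2090, 1923 and 2336 in LATS1/2-KO and 2058, 1844 and 1709 in LATS1/2-Sox9-KO. Here and below, normalized counts are counts brought by TMM factors to a common library size, and values in a sentence follow replicates 1, 2 and 3. Lats1 was lower by 1.47 ± 0.11 (log2 fold change ± SE, n = 3 per group) in LATS1/2-KO than in control, with an adjusted p of 7.07e-06 in edgeR's quasi-likelihood test, in which p-values were adjusted over all 19357 genes. Lats2 did not follow the labels, with 1039, 865 and 1220 normalized counts in control, 1256, 1434 and 1723 in the libraries labelled LATS1/2-KO, and 1957, 1580 and 1240 in those labelled LATS1/2-Sox9-KO. A gene count covers the whole gene, and whether the remaining Lats2 reads fall inside the floxed part was not tested. Sox9 had 23313, 19948 and 21534 normalized counts in control, 7205, 9506 and 12433 in the libraries labelled LATS1/2-KO and 8812, 6756 and 6460 in those labelled LATS1/2-Sox9-KO, and the last 2 groups overlapped (log2 difference −0.40 ± 0.19, adjusted p = 0.25 by edgeR). The Sox9 count, also of the whole gene, therefore did not separate the labelled groups. Whether the remaining Sox9 reads fall inside the floxed part was not tested either. Every direction given below for LATS1/2-Sox9-KO against LATS1/2-KO rests on the labels. Below, LATS1/2-KO and LATS1/2-Sox9-KO are together called the deleted groups, by label only.

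The sorted cells were checked against cell type markers. The 9 luminal markers, led by the keratin gene Krt18, summed to 14520 to 27326 CPM, a count scaled to a fixed library total, in every library, most of it from Krt18 and Krt8. Most other genes of that list fell, so that in LATS1/2-KO against control 2 rose and 5 fell and in LATS1/2-Sox9-KO against control 2 rose and 6 fell. Among those that fell were the luminal transcription factor genes Foxa1, Esr1 and Gata3. Foxa1 went from 21672 to 1839 and 1582 mean normalized counts, and Esr1 from 9731 to 862 and 764. Gata3 went from 13026 to 2478 and 2531. On the same list, Elf5 went from 4882 to 3844 in LATS1/2-KO and 1793 in LATS1/2-Sox9-KO. Kit went from 18787 to 19647 and 5949. The 8 basal and myoepithelial markers summed to 82.3, 103 and 93.2 CPM in control, to 4885, 2924 and 2830 in LATS1/2-KO and to 2265, 4614 and 6620 in LATS1/2-Sox9-KO, with Krt14, a basal keratin, giving 2175 to 6497 CPM of the sum in the last 2 groups. The rise of this sum is nearly all Krt14. In LATS1/2-KO against control Krt14, Acta2 and Cnn1 rose while Trp63 (from 1553 to 54.9 mean normalized counts), Myh11 and Mylk fell, and in LATS1/2-Sox9-KO against control Krt14, Acta2 and Krt5 rose and the other 5 fell. Every change described below between control and the deleted groups moves with these marker changes, and their part in the members' changes was not tested. In bulk libraries such as these, fewer cells that express a gene and less RNA per cell cannot be told apart. Among immune markers, the T cell gene Cd3e was at 0 in all 9 libraries. Other immune markers, among them Csf1r, Cd68 and Ptprc, had counts in every library, and the sums of that list are given below.

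Of the 7 genes, 3 rose and 2 fell in LATS1/2-KO against control by the rule of an adjusted p no higher than 0.05. Among all tested genes, 28.7% rose and 27.1% fell by the same rule, so changes in these directions were common. All 5 changed genes also passed the study's stricter rule, which asks for an absolute log2 fold change over 1 as well and which 34.6% of all tested genes passed in either direction. Fjx1, Dchs2 and Fat4 were the genes that rose, and Fat2 and Fat1 those that fell. The median log2 fold change of the 7 was 1.54, and that of all tested genes was 0.04. That median is the value of Fat4, which was 0.75 without LATS1/2-KO replicate 1. In LATS1/2-Sox9-KO against control the same rule again gave 3 genes that rose, Fjx1, Fat4 and Dchs2, and 2 that fell, Fat2 and Fat1, against 29.3% and 28.7% of all genes. Of these, 4 passed the stricter rule, which 37.4% of all genes passed, and Fat1 was the gene that did not. The median log2 fold change of the 7 was lower in this comparison, at 0.27, beside 0.01 for all tested genes. The comparisons with control share the same 3 control libraries, so their values are given side by side. The share of all tested genes whose groups did not overlap was not counted. Non-overlap given here for a gene therefore only describes its values.

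**Figure D1:**
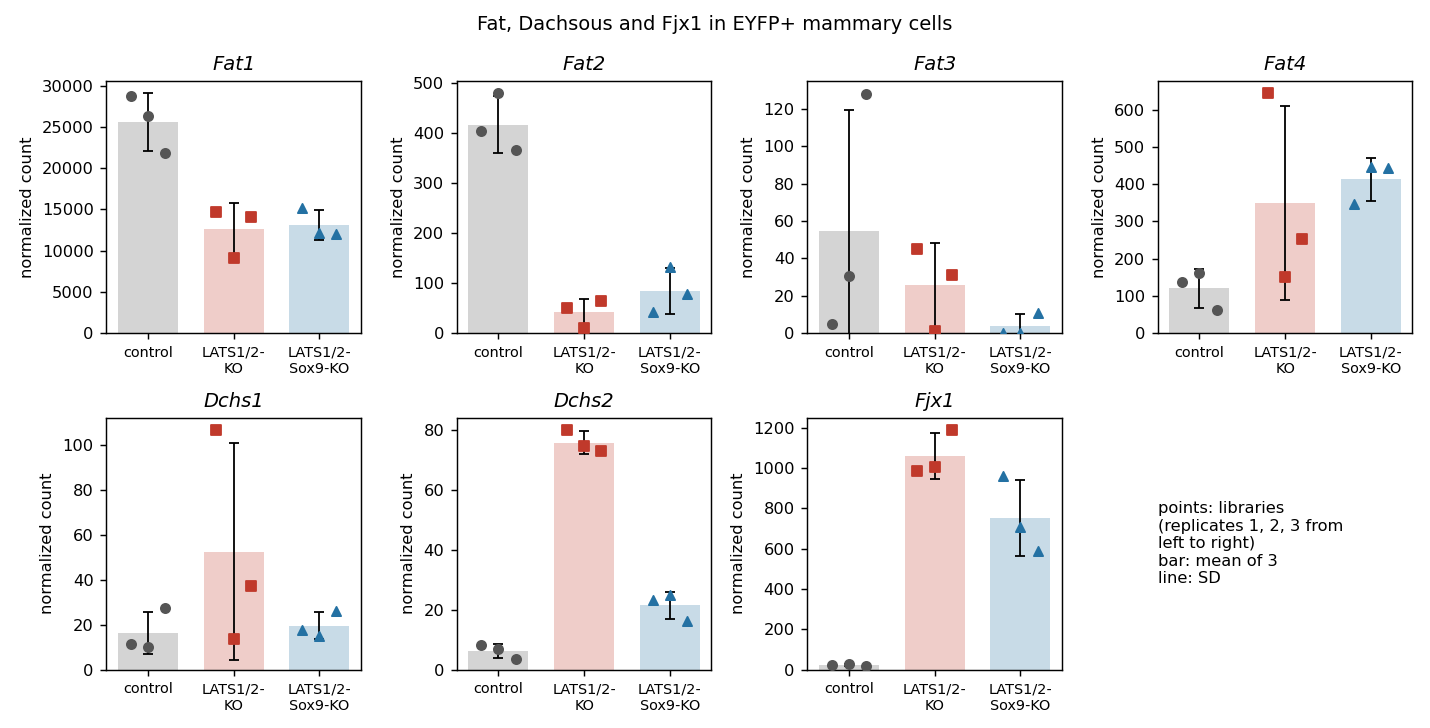
Normalized counts (y axis, linear, a separate scale for each gene) of the 7 genes in control, LATS1/2-KO and LATS1/2-Sox9-KO; points are libraries, bars are means of 3 and lines are SD, cut off at 0. Fjx1 and Dchs2 are higher in all deleted libraries than in any control library, Fat1 and Fat2 are lower in all of them, and Fat3, Fat4 and Dchs1 spread widely within a group.

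Fat1 was by far the most abundant of the receptors. Levels of different genes are compared as CPM per kilobase of exon, and on that scale Fat1 stood at 30.4 ± 4.16 (mean ± SD, n = 3) in control, which placed it above 90.6% of tested genes. Fat1 made up 97.7% ± 0.333 of the summed level of the 4 Fat genes in control, 97.3% ± 1.45 in LATS1/2-KO and 96.5% ± 1.07 in LATS1/2-Sox9-KO. The Fat signal of these cells was thus almost entirely Fat1 in every group, and the larger relative changes of the other Fat genes took place at far lower levels.

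Fat1 had 28708, 26312 and 21809 normalized counts in control, 14709, 9046 and 14094 in LATS1/2-KO, and 15180, 12091 and 12054 in LATS1/2-Sox9-KO. Every deleted library lay below every control library. Fat1 fell 2.03-fold in LATS1/2-KO (log2 fold change −1.02 ± 0.19, adjusted p = 0.00131 by edgeR) and 1.95-fold in LATS1/2-Sox9-KO (−0.97 ± 0.19, adjusted p = 0.00164 by edgeR). Falls were also common among long genes, since 40.1% of the 1388 tested genes with at least 10 kb of exon fell in LATS1/2-KO against 27.1% of all genes, and 43.9% against 28.7% in LATS1/2-Sox9-KO. With a replicate block and offsets for GC content and exon length, the log2 fold change of Fat1 shrank to −0.57 (adjusted p = 0.0095) in LATS1/2-KO and to −0.31 (adjusted p = 0.0848 by edgeR) in LATS1/2-Sox9-KO, the second no longer past the threshold.

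Fat2, a receptor known for its part in the collective migration of epithelial cells, showed the largest relative fall among the 7 genes in LATS1/2-KO. It had 404, 480 and 367 normalized counts in control, 49.1, 11 and 63.8 in LATS1/2-KO, and 41.8, 132 and 77.4 in LATS1/2-Sox9-KO. No deleted library came near the control range, although the deleted libraries differed among themselves by as much as their mean. The fall was 10.1-fold in LATS1/2-KO (log2 fold change −3.34 ± 0.59, adjusted p = 0.000945 by edgeR) and 4.99-fold in LATS1/2-Sox9-KO (−2.32 ± 0.56, adjusted p = 0.00537 by edgeR). With the replicate block and offsets the second was smaller, at −1.64 (adjusted p = 0.0396 by edgeR). In level, Fat2 went from 0.533 ± 0.0734 CPM per kilobase in control to 0.0529 ± 0.0349 and 0.107 ± 0.0578.

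Fat3 was the least stable of the receptors. It had 4.64, 30.6 and 128 normalized counts in control, 45.1, 0.847 and 31 in LATS1/2-KO, and 0, 0 and 10.9 in LATS1/2-Sox9-KO. The control libraries alone differed more than the group means did, and all groups overlapped. Neither difference from control passed the test (log2 fold change −1.09 ± 1.37, adjusted p = 0.529, and −3.83 ± 1.61, adjusted p = 0.0648, both by edgeR). Without control replicate 3, the first turned to 0.51 (adjusted p = 0.808). The second ran from −8.75 to −2.21 over 18 alternative fits and passed the threshold in 6 of them, with no filter, with the replicate block, with the block and offsets, and without control replicate 1, LATS1/2-KO replicate 2 or LATS1/2-Sox9-KO replicate 3 (adjusted p = 0.029 to 0.0485 by edgeR).

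Fat4, the receptor for Dchs1, had 136, 161 and 62.2 normalized counts in control, 645, 151 and 252 in LATS1/2-KO, and 347, 447 and 444 in LATS1/2-Sox9-KO. The LATS1/2-Sox9-KO libraries were close together and all above control, whereas LATS1/2-KO replicate 1 was high and replicate 2 lay within the control range. Fat4 rose 2.91-fold in LATS1/2-KO (log2 fold change 1.54 ± 0.51, adjusted p = 0.0271 by edgeR) and 3.44-fold in LATS1/2-Sox9-KO (1.78 ± 0.52, adjusted p = 0.0134 by edgeR). The call in LATS1/2-KO was lost without LATS1/2-KO replicate 1 (log2 fold change 0.75, adjusted p = 0.126), without control replicate 1 (1.64, adjusted p = 0.0552) or control replicate 3 (1.21, adjusted p = 0.0844), and with only the 2 compared groups in the edgeR fit (1.56, adjusted p = 0.0534). The call in LATS1/2-Sox9-KO held under all 19 alternative fits, with log2 fold changes from 1.48 to 2.48.

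Dchs1, the ligand of Fat4, stayed low. It had 11.6, 10.2 and 27.4 normalized counts in control, 107, 13.6 and 37.4 in LATS1/2-KO, and 17.6, 14.9 and 26.4 in LATS1/2-Sox9-KO. LATS1/2-KO replicate 1 again stood above the rest, as it did for Fat4, and all groups overlapped. The log2 fold change was 1.68 ± 0.74 in LATS1/2-KO (adjusted p = 0.0774 by edgeR) and 0.27 ± 0.74 in LATS1/2-Sox9-KO (adjusted p = 0.776 by edgeR). The first ran from 0.64 to 2.35 over 18 alternative fits and passed the threshold in 3 of them. The second ran from 0.01 to 1.34 over the same fits and passed in none.

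Dchs2, the second Dachsous ligand, was scarce in control and separated the 3 groups. It had 8.12, 6.8 and 3.73 normalized counts in control, 80.2, 74.6 and 73 in LATS1/2-KO, and 23.2, 24.9 and 16.4 in LATS1/2-Sox9-KO. None of the 3 groups overlapped another, and the order was control, then LATS1/2-Sox9-KO, then LATS1/2-KO. Dchs2 rose 11.9-fold in LATS1/2-KO (log2 fold change 3.58 ± 0.44, adjusted p = 9.35e-05 by edgeR) and 3.39-fold in LATS1/2-Sox9-KO (1.76 ± 0.43, adjusted p = 0.00577 by edgeR). The control libraries held only 7, 6 and 3 reads before scaling, so the size of these folds rests on few control reads. Even at its highest the gene was scarce, at 0.131 ± 0.00658 CPM per kilobase in LATS1/2-KO, a level above only 12% of tested genes.

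Fjx1 showed the largest change of the 7 genes in either comparison with control. It had 25.5, 29.5 and 19.9 normalized counts in control, 984, 1007 and 1190 in LATS1/2-KO, and 959, 708 and 591 in LATS1/2-Sox9-KO. All 6 deleted libraries were more than an order of magnitude above the highest control library. The rise was 42.2-fold in LATS1/2-KO (log2 fold change 5.40 ± 0.26, adjusted p = 8.35e-07 by edgeR) and 29.9-fold in LATS1/2-Sox9-KO (4.90 ± 0.26, adjusted p = 7.27e-07 by edgeR). With offsets for GC content these log2 fold changes were larger, at 5.95 and 5.48, and with the replicate block and offsets both were slightly larger again, the second at 5.53. Fjx1 went from 0.148 ± 0.0285 CPM per kilobase in control, above 13.3% of tested genes, to 6.29 ± 0.67 in LATS1/2-KO, above 63.6%, and 4.46 ± 1.11 in LATS1/2-Sox9-KO, above 56.9%. Fjx1 is on the study's list of YAP and TAZ targets that led an enrichment on these same libraries. The target set itself came from earlier work, and only the choice of those that led came from these libraries. The rise of Fjx1 is therefore not independent evidence about that list.

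**Figure D2:**
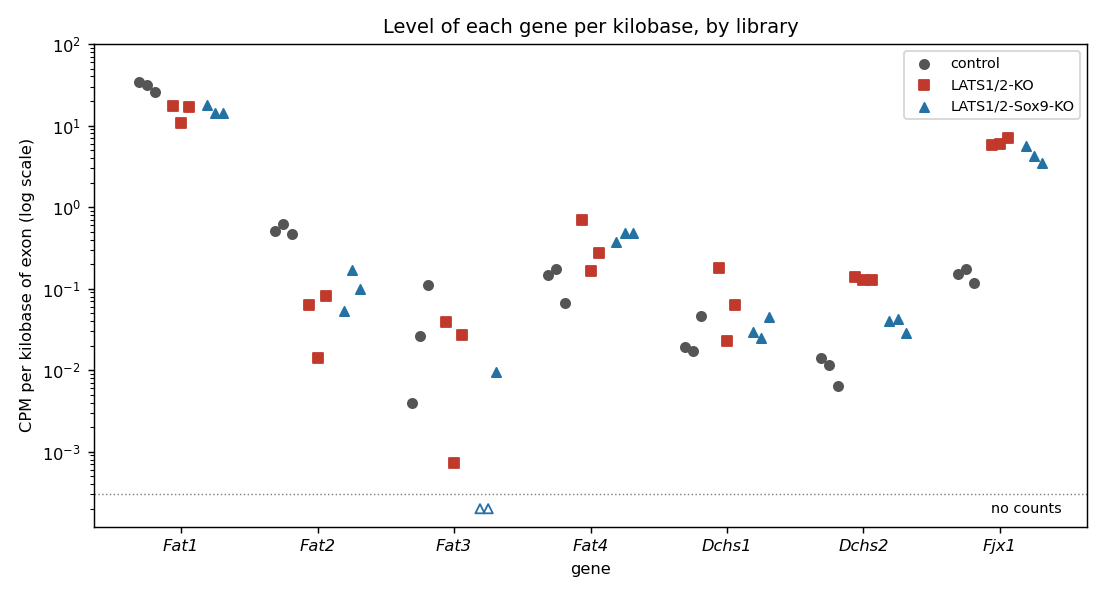
Level of each gene in each library as CPM per kilobase of exon (y axis, log scale), with open symbols under the dotted line for libraries with no counts. Fat1 is the highest gene in every library, Fjx1 moves from the range of Fat4 in control to second place in the deleted libraries, and Fat3 has no counts in 2 LATS1/2-Sox9-KO libraries.

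The make-up of the group therefore shifted between receptors and the kinase. As a share of the summed CPM per kilobase of the 7 genes, Fjx1 went from 0.472% ± 0.0605 in control to 29.3% ± 5.59 in LATS1/2-KO and 21.4% ± 2.28 in LATS1/2-Sox9-KO, while Fat1 went from 97.1% ± 0.39 to 67.7% ± 4.33 and 75.5% ± 1.73. In control the order of mean level was Fat1, Fat2, Fjx1 at 0.148, Fat4 at 0.13, Fat3 at 0.0471, Dchs1 at 0.0276 and Dchs2 at 0.0107 CPM per kilobase. Fjx1 and Fat4, Fat4 and Fat3, and Fat3 and Dchs1 overlapped between libraries, so those neighbours did not differ beyond their spread. In LATS1/2-KO the order was Fat1 at 15, Fjx1 at 6.29, Fat4 at 0.378, Dchs2 at 0.131, Dchs1 at 0.0887, Fat2 at 0.0529 and Fat3 at 0.0222, and from Dchs2 downward each neighbour overlapped the next. In LATS1/2-Sox9-KO it was Fat1 at 15.6, Fjx1 at 4.46, Fat4 at 0.447, Fat2 at 0.107, Dchs2 at 0.0371, Dchs1 at 0.0331 and Fat3 at 0.00315, with Dchs2 and Dchs1 as the overlapping neighbours. Fat2 was thus second in control and sixth in LATS1/2-KO.

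**Figure D3:**
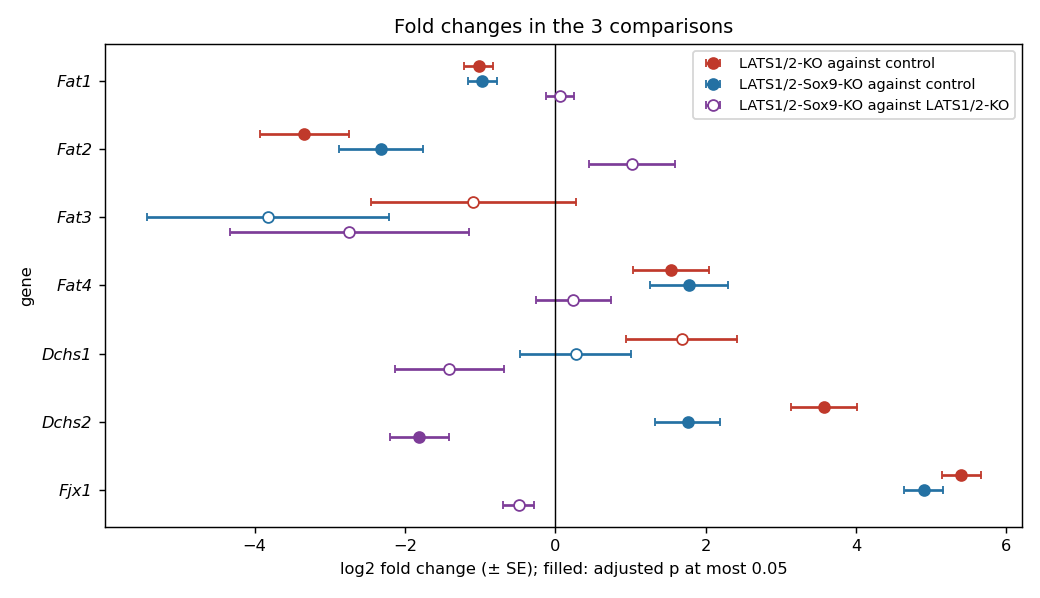
Log2 fold change (x axis, points with SE) of each gene in the 3 comparisons, with filled points for an adjusted p of at most 0.05 in edgeR. Fat1 and Fat2 lie left of 0 and Fat4, Dchs2 and Fjx1 right of it against control, and Dchs2 alone is filled for LATS1/2-Sox9-KO against LATS1/2-KO.

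LATS1/2-Sox9-KO against LATS1/2-KO asks what the floxed Sox9 alleles add. Among the 7 genes, 0 rose and 1 fell, Dchs2, against 3.13% and 3.33% of all tested genes, and Dchs2 also passed the stricter rule, as did 3.71% of all genes. DESeq2 also gave 0 and 1. Without adjustment, Dchs2 and Fjx1 had p-values under 0.05 (0.000918 and 0.0383, edgeR), and both were lower. Dchs2 was 3.52-fold lower, with 16.4 to 24.9 normalized counts against 73 to 80.2 (log2 fold change −1.81 ± 0.39, adjusted p = 0.0263 by edgeR). The call held in 12 of 18 alternative fits, with log2 fold changes from −1.91 to −1.63 in all 18, and was lost without LATS1/2-KO replicate 2 or 3, without any of the 3 LATS1/2-Sox9-KO replicates, and with the replicate block and the offsets, where the adjusted p was 0.0502 to 0.0991. Markers also differed between these groups. Of the 8 basal and myoepithelial markers 3 fell, Acta2 (from 11572 to 4587 mean normalized counts), Cnn1 (from 479 to 113) and Oxtr (from 499 to 85.5), of the 9 luminal markers Krt8 and Krt18 rose and Epcam fell, and of the 7 endothelial markers Tek fell (from 85.9 to 17.7). Their part in the fall of Dchs2 was not tested.

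Fjx1 was 1.41-fold lower, with groups that did not overlap (591 to 959 against 984 to 1190 normalized counts), but the difference missed the threshold (log2 fold change −0.49 ± 0.21, adjusted p = 0.19 by edgeR). The other members overlapped. Their log2 fold changes were 0.06 ± 0.19 for Fat1, 1.02 ± 0.57 for Fat2, −2.74 ± 1.59 for Fat3, 0.24 ± 0.50 for Fat4 and −1.41 ± 0.72 for Dchs1, with adjusted p-values of 0.283 to 0.901 in edgeR. None of these shows that the groups were alike, and the SE was smallest for Fat1 and largest for Fat3. Over the alternative fits Fat2 ran from 0.56 to 1.49, Fat3 from −7.65 to −2.05 and Dchs1 from −1.84 to −0.36, never past the threshold.

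Markers of other cell types moved with some of the members. The 9 fibroblast markers summed to 50.6, 85.7 and 183 CPM in control, 396, 349 and 183 in LATS1/2-KO, and 98.8, 185 and 240 in LATS1/2-Sox9-KO. The most abundant was Dcn, a matrix proteoglycan, in control and Postn, a matrix protein, in LATS1/2-KO. No fibroblast marker was at 0 in any library, and in LATS1/2-KO against control 5 of the 9 rose, Postn, Col3a1, Lum, Col1a2 and Col1a1, while Dcn fell. In LATS1/2-Sox9-KO against control 4 of the 9 rose and 2 fell, and Col1a1 went from 311 to 1614 mean normalized counts. Fat3 followed Dcn, which had 30.2, 61.1 and 152 CPM in control, 24.5, 5.37 and 21.6 in LATS1/2-KO and 0.517, 2.22 and 6.04 in LATS1/2-Sox9-KO. The control library highest for Fat3, replicate 3, was also highest for Dcn, and the order of the libraries within each group was the same for both genes apart from the 2 libraries in which Fat3 was at 0. Dcn was singled out after its values were seen. Col1a1 and Col1a2 had the same order of libraries within each group as Dcn, though both rose in LATS1/2-KO against control, and Col3a1 and Lum shared it in control. The other 4 did not share it in control, where Postn had 4.83, 4.42 and 4.72 CPM and Pdgfra (6.34, 7.77 and 5.55 CPM in control), Dpt (0.194, 0.253 and 0.162) and Pdgfrb (0.431, 0.548 and 0.347) were lowest in replicate 3. LATS1/2-KO replicate 1, the library with the highest Fat4 and Dchs1, had the highest fibroblast sum and the highest collagen levels of its group, with Col1a1 at 44.8 CPM against 8.23 and 11.9 in replicates 2 and 3. It also had the highest immune sum of its group (81.8 CPM against 57.7 and 39), with Lyz2, a myeloid lysozyme gene, at 17.8 CPM against 4.39 and 1.59, and Ptprc, which codes for the leukocyte antigen CD45, at 3.09 against 0.645 and 0.203. The part of fibroblast RNA in Fat3, and of fibroblast or immune RNA in Fat4 and Dchs1, was not tested.

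**Figure D4:**
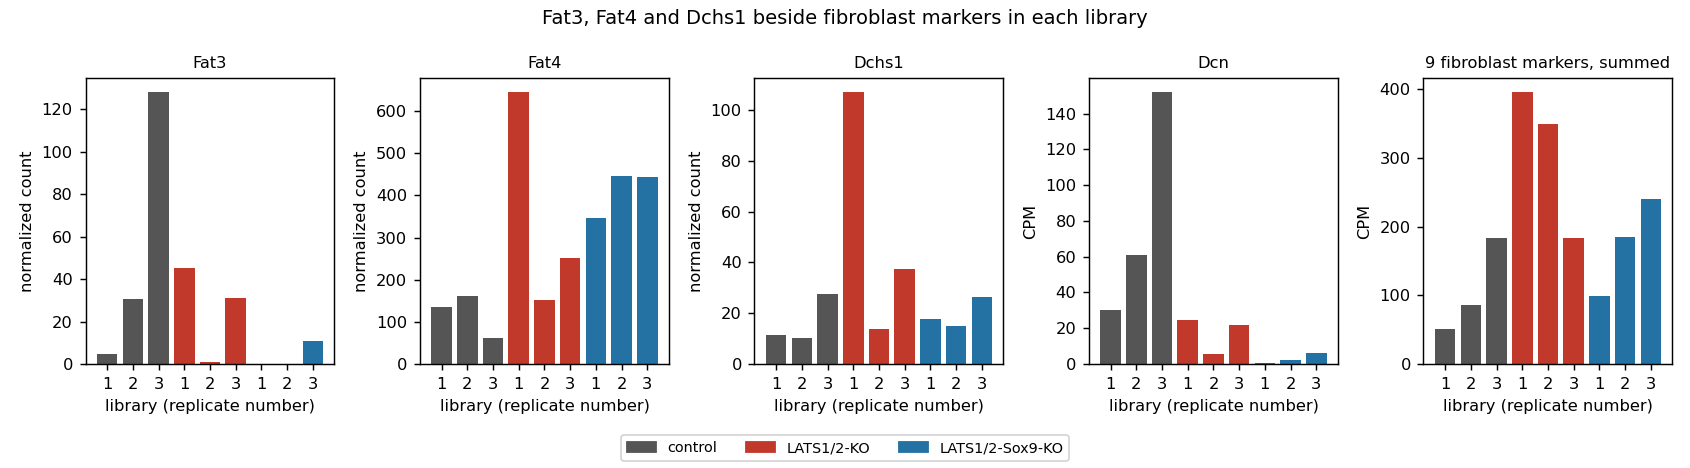
Normalized counts of Fat3, Fat4 and Dchs1, and CPM of Dcn and of the 9 fibroblast markers summed, in each library (x axis, replicate number; bar colour, group; all y axes from 0). Control replicate 3 is highest for Fat3 and Dcn, and LATS1/2-KO replicate 1 is highest for Fat4, Dchs1 and the marker sum.

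The other marker lists were smaller or moved differently. Endothelial markers summed to 6.02 to 16.5 CPM in all libraries. The 5 adipocyte markers summed to 5.06, 3.39 and 5.36 CPM in control, 9, 115 and 59.6 in LATS1/2-KO and 1.62, 36.7 and 25.3 in LATS1/2-Sox9-KO, led by Cfd in LATS1/2-KO replicates 2 and 3 and by Fabp4 elsewhere, and Cfd and Lep were at 0 in all control libraries. The pericyte list was led by Notch3, at 309 to 403 CPM in control and 28.9 to 75.3 in the deleted groups. In control Notch3 gave nearly all of the list's sum of 406, 377 and 313 CPM. Rgs5 was at 2.63, 1.9 and 3.51 CPM there, so the sum follows Notch3 and not the list as a whole. Its other genes did not all move that way. Of the 4 pericyte markers tested, 1 rose and 2 fell in LATS1/2-KO against control, and 0 rose and 2 fell in LATS1/2-Sox9-KO against control. Schwann cell markers summed to 7.49 to 10.7 CPM in control and 1.06 to 2.41 in the deleted groups. Fat1 and Fat2 also fell, as did Foxa1, Esr1, Gata3, Trp63, Myh11 and Mylk. Immune markers summed to 14.3 to 21.3 CPM in control and 39 to 89.7 in the deleted groups, led there by Csf1r, which went from 2.38 to 3.86 CPM in control to 32.6 to 72 and made up most of the rise. Of the 7 immune markers tested, Csf1r alone rose in LATS1/2-KO and Csf1r and Adgre1 in LATS1/2-Sox9-KO. The part of these cell types in the members' changes was not tested.

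The genes around Fat and Dachsous moved in both directions. Of the 14 partner genes, which code for proteins known to bind Fat or Dachsous tails or to act next to them, 4 rose and 5 fell in LATS1/2-KO against control, beside 28.7% and 27.1% of all genes, with a median log2 fold change of −0.03. Those that rose were Mpdz, a scaffold with many PDZ domains (log2 fold change 2.91 ± 0.33, from 1039 to 7834 mean normalized counts), Fbxl7, the relative of a fly F-box protein that acts after Fat (2.17), Evl, an actin regulator of the Ena/VASP family (1.30 ± 0.38), and Lix1l, a relative of the fly Fat-binding protein Lowfat (1.04 ± 0.21). Fbxl7 was scarce, at 9.71 mean normalized counts in control, 44.2 in LATS1/2-KO and 42.4 in LATS1/2-Sox9-KO. Rere and Atn1, relatives of the fly corepressor Atrophin, fell (−1.99 ± 0.16 and −0.97 ± 0.20, the latter −0.26 with an adjusted p of 0.228 by edgeR with the replicate block and offsets), as did the scaffold gene Dlg5 (−1.11 ± 0.17), Csnk1d (−0.92), a casein kinase gene, and Homer1 (−0.78). In LATS1/2-Sox9-KO against control 4 rose, Fbxl7 (2.10), Mpdz (1.91), Homer3 (0.60) and Csnk1e (0.59), and 7 fell, beside 29.3% and 28.7% of all genes, with a median of −0.44.

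Core planar cell polarity genes build the second system that orients epithelial cells. Of 23, 5 rose and 12 fell in LATS1/2-KO against control, beside 28.7% and 27.1% of all genes, with a median of −0.69. The genes that rose were Wnt11, a secreted ligand (3.87 ± 0.40, from 387 to 5648 mean normalized counts), Ror1, a receptor kinase (3.15 ± 0.47), Prickle1, a cytoplasmic core component (2.11 ± 0.27), the membrane component Vangl1 (1.71) and the receptor Fzd6 (0.63). Ror2, the sister receptor of Ror1, fell from 851 to 43.2 mean normalized counts (−4.31 ± 0.79), Celsr2, a seven-pass cadherin, from 15121 to 2218 (−2.77 ± 0.26), and Fuz, a planar polarity effector needed for cilia, from 1663 to 330 (−2.33 ± 0.32). In LATS1/2-Sox9-KO against control 5 rose, Wnt11 (3.92), Ror1 (2.99), Prickle1 (2.53), Vangl1 (1.55) and Fzd6 (0.40), and 15 fell, beside 29.3% and 28.7% of all genes, with a median of −0.82. The call of Fzd6 there was lost with DESeq2 (0.37, adjusted p = 0.0599) and with offsets for GC content (0.22, adjusted p = 0.16 by edgeR). The number that fell in this comparison dropped to 8 with the replicate block and the offsets for GC content and exon length.

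Hippo upstream and core genes had a median above 0. In LATS1/2-KO against control 18 of 30 rose and 8 fell, beside 28.7% and 27.1% of all genes, with a median of 0.56. The largest rises were those of Amot, a junctional scaffold that binds YAP (4.64 ± 0.16, from 1462 to 36417 mean normalized counts), Ajuba, a LIM protein that holds back LATS (3.39 ± 0.20), and Tead4, a DNA-binding partner of YAP and TAZ (2.29 ± 0.17). The largest falls were those of Rassf6, a scaffold of the pathway (−2.80 ± 0.17), Tead2 (−2.35 ± 0.24), another TEAD gene, and Lats1 itself. Yap1 fell (−0.65 ± 0.14, adjusted p = 0.00339 by edgeR) and Wwtr1, which codes for TAZ, rose (0.43 ± 0.14, adjusted p = 0.0211 by edgeR), though the rise of Wwtr1 came to 0.00 with offsets for GC content and was lost without control replicate 3 (0.29, adjusted p = 0.0639) or LATS1/2-KO replicate 3 (0.36, adjusted p = 0.0734). In LATS1/2-Sox9-KO against control the counts were again 18 and 8, beside 29.3% and 28.7% of all genes, with a median of 0.48.

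Other long or non-clustered cadherins served as relatives outside the Fat and Dachsous group, and 11 of 20 passed the filter. In LATS1/2-KO against control 4 rose, the protocadherin genes Pcdh18 (4.24 ± 0.52) and Pcdh7 (4.15 ± 0.73) and the desmosomal genes Dsg2 (1.10 ± 0.12) and Dsc2 (0.98), and 3 fell, Cdhr1 (−3.40 ± 0.51), Pcdh10 (−1.72 ± 0.48) and Clstn1 (−1.13 ± 0.17), beside 28.7% and 27.1% of all genes, with a median of 0.93. The call of Dsc2 was lost with offsets for GC content (0.50, adjusted p = 0.0989 by edgeR) and with the replicate block and offsets (0.63, adjusted p = 0.0766). In LATS1/2-Sox9-KO against control Pcdh18 (4.04), Pcdh7 (2.18), Dsc2 (2.04) and Dsg2 (1.44) rose, and Cdhr1 (−5.81), Clstn3 (−4.17), Pcdh10 (−2.63) and Clstn1 (−1.03) fell, beside 29.3% and 28.7% of all genes, with a median of 0.33. With the replicate block and offsets, the call of Clstn1 was lost, at −0.30 (adjusted p = 0.127 by edgeR), as was that of Clstn3, at −3.34 (adjusted p = 0.135).

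**Figure D5:**
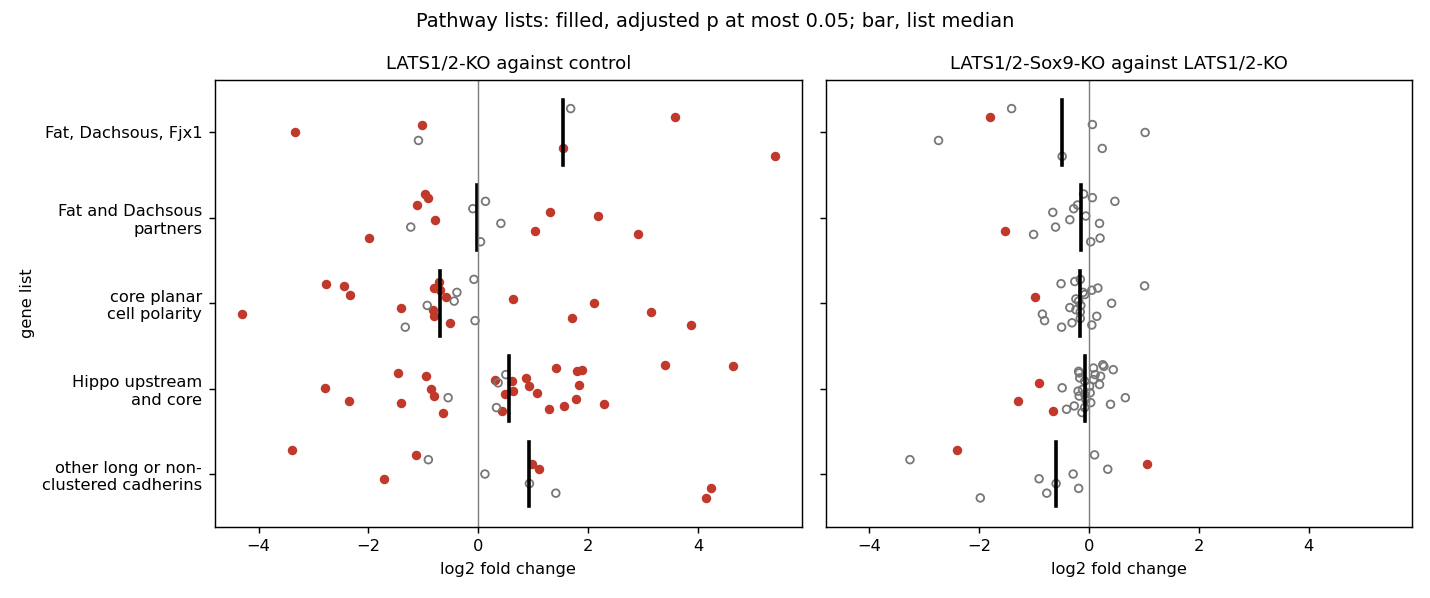
Log2 fold change (x axis) of each tested gene of the 5 lists (y axis) in LATS1/2-KO against control and in LATS1/2-Sox9-KO against LATS1/2-KO; filled points have an adjusted p of at most 0.05 in edgeR and black bars are list medians. Most points are filled on both sides of 0 against control, with medians from −0.69 to 1.54, and few are filled between the deleted groups.

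Between LATS1/2-Sox9-KO and LATS1/2-KO, 1 of 14 partners, 1 of 23 planar polarity genes, 3 of 30 Hippo genes and 2 of the 11 other cadherins tested changed, where 3.13% of all genes rose and 3.33% fell. Of the partners, Lix1l fell, from 462 to 159 mean normalized counts (log2 fold change −1.53 ± 0.21, adjusted p = 0.00561 by edgeR). Of the planar polarity genes, the receptor gene Fzd3 fell, from 896 to 450 (−0.99 ± 0.17, adjusted p = 0.012 by edgeR). Of the Hippo genes, Tead2 (−1.29 ± 0.23), Nf2 (−0.92 ± 0.23), which codes for the upstream scaffold Merlin, and Wwtr1 (−0.65 ± 0.14) fell, and of the other cadherins Cdhr1 fell (−2.41 ± 0.54) and Dsc2 rose (1.06 ± 0.26). The list medians were −0.16, −0.16, −0.08 and −0.60, beside −0.49 for the 7 members and −0.02 for all tested genes. The call of Lix1l held in all 19 alternative fits. Those of Fzd3 and Tead2 were lost without LATS1/2-Sox9-KO replicate 2 (adjusted p = 0.065 and 0.069 by edgeR). The other calls were less stable, since that of Wwtr1 was lost with the replicate block and without LATS1/2-KO replicate 2 or 3 or any LATS1/2-Sox9-KO replicate (adjusted p up to 0.115), and those of Nf2, Cdhr1 and Dsc2 in the fit of the 2 groups alone and without several of the libraries (adjusted p up to 0.162, 0.109 and 0.139 by edgeR).

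The genes whose profile over the 9 libraries was most like that of each member were found from the root mean square difference of centred log2 levels among 12505 genes. For Fat1 the nearest were Uhrf1bp1 at 0.06, Dedd2 at 0.09 and Kcnq1ot1 at 0.09, a close match beside the spread of 0.53 of Fat1 itself. Fat2 was nearest to Tnfrsf25 at 0.38, Igfals at 0.50 and Hist2h3c2 at 0.52. For Fat3 they were Tceal3 at 1.07, Chsy3 at 1.16 and Dcn at 1.17, so Fat3 had no close match, and Fat4 was nearest to Khdrbs3 at 0.36 and to Rai14 and Dctd at 0.40. Among the ligands, Dchs1 was nearest to Il2rg at 0.42, Sytl2 at 0.46 and Tns1 at 0.48, and Dchs2 to Rimklb at 0.34, Lama4 at 0.38 and Gpc3 at 0.41. For Fjx1, Tpm2 stood at 0.34 and Ptprm at 0.37. Within the group itself, Fat4 and Dchs1, the receptor and ligand pair, had the smallest difference of any pair, at 1.00, which is as large as the spread of Fat4 itself (1.00) and larger than that of Dchs1 (0.93), so they were no close match, and Fat2 and Fjx1 the largest, at 3.93. These are descriptions, since all genes were compared over the same 9 libraries in 3 groups, and the groups differ in depth.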

How the data were processed

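RNA was from EYFP+ mammary cells of 9 libraries, 3 in each of 3 groups, and the labels gave group and replicate number. The authors aligned reads to mm10 with STAR 2.6.0c and used featureCounts on proper pairs with a unique alignment (Subread 1.6.2), and the deposited values are raw counts per gene without normalization. Ensembl IDs were given symbols, exon lengths and positions from GENCODE M21 on the same build, which held 55190 of 55450 IDs. The authors counted on another Ensembl annotation release, so the exon lengths behind levels per kilobase may differ from those of the counted genes. The study gives 3 samples per condition from mice of each genotype but does not say that each library was a separate mouse, so p-values measure the spread between these libraries, which may be technical. Libraries of the same group differed by more than counting noise, with a chi-square of 17.9 to 142 per gene, and none was counted as a repeat of another.

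Tests were run with edgeR 4.0.16 under R 4.3.3 (filterByExpr, TMM, quasi-likelihood F-test of 3 group means on all 9 libraries), with Benjamini-Hochberg adjustment over the 19357 tested genes and a threshold of 0.05. The SE was derived from the F statistic. DESeq2 1.42.0, other scalings and filters, a fit of 2 groups, a replicate block, offsets for GC content and exon length, and leaving out each library were the 19 alternative fits. Scripts were tested on simulated data. With 3 libraries against 3, an exact permutation test cannot go below p = 0.1, so none was used. The 7 genes and the lists were chosen with earlier results of these data known. Named list genes are at most 3 rises and 3 falls per list past the threshold in LATS1/2-KO against control, whose higher group averages 50 normalized counts or more, plus any gene needed to name a count of 5 or fewer, and the 3 most similar genes of each member, of which 1 is not reported here. Fibroblast genes named as risen were chosen after their values were seen.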

Additional observations from a re-analysis of the deposited data

How the results depend on the processing

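Over the 19 alternative fits, Fat2 and Fjx1 in both comparisons with control, Fat1 in LATS1/2-KO and Fat4 in LATS1/2-Sox9-KO kept their direction and stayed past the threshold, as did Dchs2 against control in the 18 fits in which it was tested. The number of members that fell between LATS1/2-Sox9-KO and LATS1/2-KO, 1, became 0 with at least 10 counts required in every library, since that filter removed Dchs2, Dchs1 and Fat3, and became 0 with the replicate block and offsets. It was 0 to 1 when a library was left out. Log2 fold changes that turned sign when a library was left out were those of Fat3 in LATS1/2-KO against control (−1.77 to 0.51, above 0 without control replicate 3) and, for LATS1/2-Sox9-KO against LATS1/2-KO, of Fat1 (−0.11 to 0.18, with −0.11 without LATS1/2-KO replicate 2 and −0.04 without LATS1/2-Sox9-KO replicate 1) and Fat4 (−0.09 to 1.04, below 0 without LATS1/2-KO replicate 2), and the cause was not tested.

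Of all genes in LATS1/2-Sox9-KO against LATS1/2-KO, 605 rose and 644 fell, while DESeq2 gave 1172 and 1228. Leaving out a library gave 155 to 1012 that rose and 94 to 1032 that fell, the lowest without LATS1/2-Sox9-KO replicate 2 and the highest without LATS1/2-KO replicate 1. Those that rose were 48.4% of the calls, against 59% with the replicate block and offsets, 39.4% with upper-quartile factors and 44.4% to 62.2% when a library was left out. Replicate numbers are shared by the groups in the labels only. Same-numbered libraries of different groups had correlations of −0.07 to 0.17, so the numbers were not taken to pair them. With the replicate block alone, 472 genes rose and 503 fell in that comparison, and Fat4 in LATS1/2-KO against control had a log2 fold change of 1.46 (adjusted p = 0.0441 by edgeR). Levels per kilobase of the longest transcript moved by less than the spread between libraries for all 7 genes. Depth limits Dchs2, Dchs1 and Fat3, with single-digit reads in some libraries. Among the list genes compared with control, leaving out a library cost other calls beside that of Wwtr1 given above. In LATS1/2-KO they were those of Evl (LATS1/2-KO replicate 3, adjusted p = 0.0536) and Pcdh10 (control replicate 2, 0.0574), both by edgeR. In LATS1/2-Sox9-KO they were those of Fzd6 (adjusted p up to 0.137), Pcdh7 (up to 0.0773), Homer3 (up to 0.0631), Clstn3 (up to 0.206) and Lats2 (up to 0.0929), all by edgeR. Each of these LATS1/2-Sox9-KO calls was lost without more than 1 of the libraries in turn.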
